A study of Homo sapiens with 8 samples.

Results

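The EGF receptor system was examined as 10 genes: the ligands HBEGF, AREG, EREG, TGFA and NRG1, the receptors EGFR, ERBB2 and ERBB3, the ligand-releasing protease ADAM17 and the intracellular inhibitor ERRFI1. The rows were taken by symbol from the 17649 genes of the deposited table, and the set was named with earlier results of these data known. All 10 were present, and all had a mean of at least 0.5 CPM (counts of reads, scaled to the same library size). The cells were MDA-MB-231, an established human breast cancer line labelled as estrogen receptor negative. The 4 control cultures received PBS, and the 4 other cultures, titled NCML, received 1 μM N-(1-carboxymethyl)-L-lysine (CML), both for 48 hours in low glucose medium. CML is an advanced glycation end product, formed by the reaction of lysine with sugar-derived compounds. No culture carried an added gene or deletion, and the comparison asked how gene expression differed after CML exposure. The estimated depth was between 16559914 and 17729518 reads for the control libraries and between 16161801 and 18954731 reads for the CML libraries. The labels give NextSeq in one place and HiSeq in another without assigning libraries to either, so no batch could be tested. The study's methods name HiSeq for this experiment.

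The ERBB receptors are receptor tyrosine kinases that form pairs when a ligand binds. HBEGF, AREG, EREG and TGFA bind EGFR, and HBEGF and EREG also bind ERBB4, whereas NRG1 binds ERBB3 and ERBB4. ERBB2 has no known ligand and acts as a partner of the others. The ligands are made as membrane-anchored precursors, from which ADAM17 and related proteases release the soluble factor. ERRFI1 (MIG6) binds the EGFR kinase domain and blocks it, and its own gene is induced by EGFR signaling.

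The genome sequence just before the start site is shown for HBEGF, the ligand that rose, and for AREG and EREG, neighbors on chromosome 4 that did not pass the test. HBEGF lies at chr5:140332843-140346603 on the minus strand, AREG at chr4:74445136-74455005 and EREG at chr4:74365145-74388749, both on the plus strand (RefSeq, GRCh38.p14). Each line gives the 250 bases upstream of the gene's start, 5′ to 3′ on the gene's strand, with matches to the searched motifs in capitals.
HBEGF: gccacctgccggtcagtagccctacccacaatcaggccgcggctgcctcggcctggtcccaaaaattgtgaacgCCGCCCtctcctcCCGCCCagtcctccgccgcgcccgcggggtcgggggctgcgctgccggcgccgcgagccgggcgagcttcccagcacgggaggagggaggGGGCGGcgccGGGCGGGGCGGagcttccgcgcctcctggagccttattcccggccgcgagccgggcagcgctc
AREG: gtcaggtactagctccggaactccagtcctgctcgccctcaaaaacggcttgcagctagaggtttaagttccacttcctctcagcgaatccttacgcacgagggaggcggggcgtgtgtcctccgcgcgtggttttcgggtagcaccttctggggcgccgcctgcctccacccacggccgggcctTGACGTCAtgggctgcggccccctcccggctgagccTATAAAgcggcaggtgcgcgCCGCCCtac
EREG: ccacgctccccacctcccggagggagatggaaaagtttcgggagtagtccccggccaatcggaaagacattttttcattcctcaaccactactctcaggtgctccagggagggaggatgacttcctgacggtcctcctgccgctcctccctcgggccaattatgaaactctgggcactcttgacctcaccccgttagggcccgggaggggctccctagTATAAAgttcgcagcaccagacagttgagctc
These windows span chr5:140346604-140346853, chr4:74444886-74445135 and chr4:74364895-74365144. The motifs searched on both strands were the GC box GGGCGG, the CRE TGACGTCA, the TATA box TATAAA, the AP-1 motif TGANTCA, and the NF-κB and CArG box motifs. The HBEGF window, at 76.4% GC, had 5 GC boxes, of which the pair nearest the start overlap by 1 base, and no match to the other motifs. The AREG window had a CRE from 65 to 58 bases before the start, a TATA box from 29 to 24 bases and 1 GC box on the opposite strand. The EREG window had only a TATA box, from 32 to 27 bases before the start. Of 35116 RefSeq promoter windows of the same length, 42.6% held a GC box, 1.65% the CRE, 10.7% the TATA box, 6.57% the AP-1 motif, 5.21% the NF-κB motif and 1.16% the CArG box. A match is a description of the letters in the window, since binding was not measured. Promoter entries matched 8 of the 10 genes.

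HBEGF, which encodes heparin-binding EGF-like growth factor, rose in the CML cultures. Its level was 168.4, 175.2, 181.0 and 171.8 CPM in control replicates 1 to 4. In the CML replicates it was 196.4, 202.1, 195.0 and 195.3 CPM. Every CML culture was above every control culture. The means were 174.1 ± 5.35 CPM in the controls and 197.2 ± 3.32 CPM after CML (SD, n = 4 each), a difference of 13.2%. On the log2(CPM + 1) scale, used for all fold changes here, the difference was 0.18 (SE 0.024, 95% CI 0.12 to 0.24), with a limma adjusted p of 0.0980 over all genes. This passed the FDR of 0.3 that the study used for this experiment, but not 0.05. A 2-sided exact permutation test over the 70 ways of labelling the 8 libraries gave p = 0.0286 for HBEGF alone, the smallest that this design allows. It restates that the groups did not overlap, for a gene singled out with its rise known, and is not further evidence. Without CML replicate 2, the highest library, the difference was 0.17 with an adjusted p of 0.330. Each HBEGF value rested on 2825 to 3777 reads, for which counting error alone gives a coefficient of variation of 1.84% in the controls, against 3.07% observed. After CML, counting error alone gives 1.72%, against 1.68% observed. A bulk measurement cannot tell a higher level in every cell from a larger share of cells that express the gene. Nothing in the labels says that replicates came from separate passages, so the p-values measure the spread between these cultures.

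**Figure D1:**
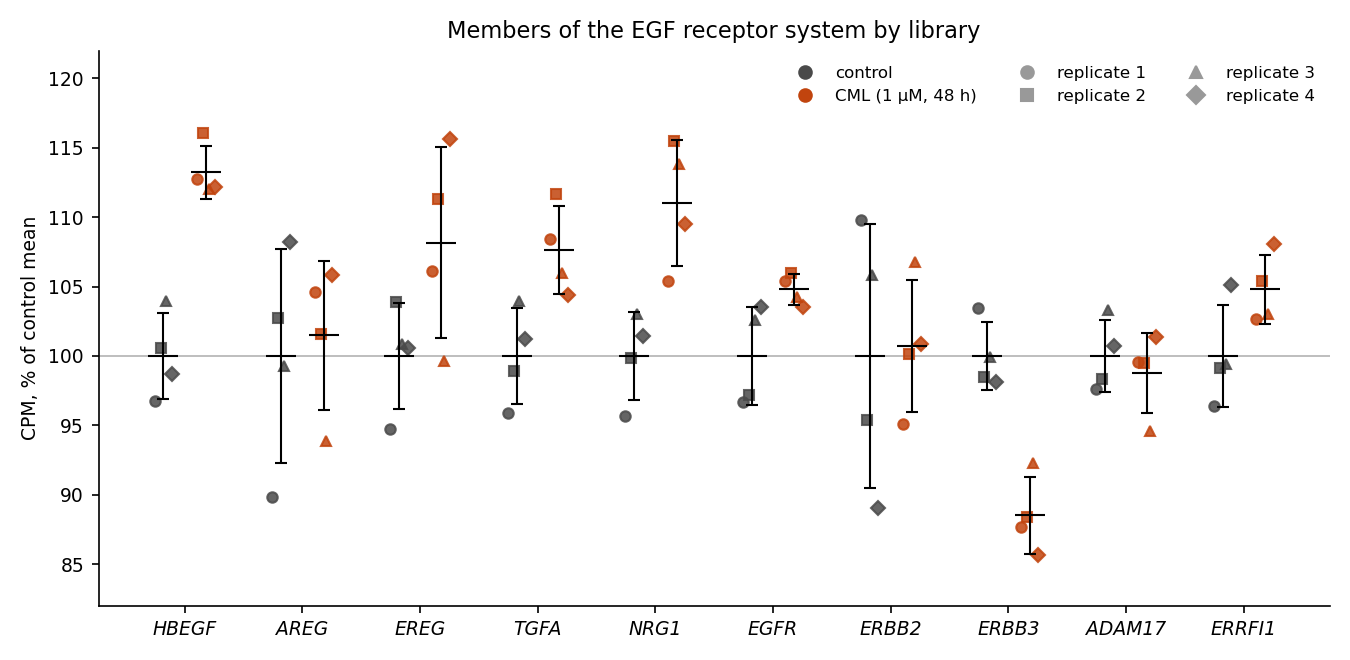
Level of each of the 10 genes in the 4 control and 4 CML libraries, as a percentage of the gene's control mean CPM. Points are libraries on a shared vertical axis, and bars give the mean and SD. HBEGF, TGFA and NRG1 were higher in every CML library than in any control library, ERBB3 was lower in every CML library, and the other 6 genes overlapped.

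Of the 10 genes, 1 (HBEGF) had an adjusted p under 0.3, against 0.895% of all 17649 genes, or 158 genes. Of those 158, 119 (0.674% of all genes) were higher after CML and 39 (0.221%) were lower, and the share was 1.02% among the 13047 genes that averaged at least 1 CPM. On the deposited values of all 17649 genes, no gene reached an adjusted p under 0.05 in limma. HBEGF was at 0.0454 when only genes averaging 1 CPM or more were tested. In the fit over all genes, 1352 genes (7.66%) had an unadjusted p under 0.05, among them 5 of the 10. The groups did not overlap for 3 higher genes (HBEGF, TGFA and NRG1) and 1 lower gene (ERBB3), or 4 in all. Among the same 13047 genes, 4.34% did not overlap, with 3.04% higher and 1.3% lower. The mean was higher after CML for 8 of the 10 genes. Their median log2 difference was 0.07, and that of the 13047 genes was 0.01, of which 58.8% were higher after CML.

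Among the other ligands, NRG1 and TGFA had higher values in all CML cultures but did not pass the adjusted threshold. NRG1 encodes neuregulin 1, the ligand of ERBB3. Its level was 58.5, 61.1, 63.0 and 62.0 CPM in the controls and 64.4, 70.6, 69.6 and 67.0 CPM in the CML replicates. The groups did not overlap, although control replicate 3 and CML replicate 1 lay close together. The log2 difference was 0.15 (SE 0.035), with a limma adjusted p of 0.350. The NRG1 locus overlaps several annotated noncoding RNAs and 1 further protein-coding model, so its reads may include theirs.

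TGFA encodes transforming growth factor α, a high-affinity EGFR ligand. Its level was 38.8, 40.0, 42.1 and 41.0 CPM in the controls and 43.9, 45.2, 42.9 and 42.3 CPM after CML. The lowest CML value lay just above the highest control value. The log2 difference was 0.10 (SE 0.032), with a limma adjusted p of 0.474.

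EREG and AREG encode epiregulin and amphiregulin, which bind EGFR with lower affinity than TGFA does. EREG was at 26.4, 28.9, 28.1 and 28.0 CPM in the controls and at 29.5, 31.0, 27.7 and 32.2 CPM after CML. CML replicate 3 lay below the control mean of 27.8 ± 1.07 CPM, and the log2 difference was 0.11 (SE 0.050, limma adjusted p = 0.700). AREG was at 28.6, 32.8, 31.6 and 34.5 CPM in the controls and at 33.3, 32.4, 29.9 and 33.7 CPM after CML. The highest and the lowest AREG value were both in controls, and the log2 difference was 0.02 (SE 0.063, 95% CI −0.13 to 0.17, limma adjusted p = 1). AREG and EREG rested on 442 to 605 reads per library, which gives a counting error of between 4.26% and 4.61%.

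HBEGF was also set against the other ligands. Since HBEGF was singled out with its rise known, the values describe its excess, and the p below is not independent evidence of a larger rise. Within each library, the log2(CPM + 1) of HBEGF exceeded the mean of AREG, EREG, TGFA and NRG1 by 2.19, 2.14, 2.18 and 2.09 in the controls and by 2.24, 2.23, 2.27 and 2.19 after CML. The groups did not overlap, with control replicate 1 and CML replicate 4 separated by less than 0.01. The mean excess was 2.15 ± 0.04 in the controls and 2.23 ± 0.03 after CML (SD, n = 4 each), a difference of 0.08. The 2-sided exact permutation test gave p = 0.0286, the smallest value possible with 70 labellings. Taken ligand by ligand, the difference in excess was 0.16 over AREG, 0.07 over EREG, 0.08 over TGFA and 0.03 over NRG1. The groups overlapped for AREG, EREG and NRG1, and did not for TGFA. With libraries left out in turn, the difference over the mean was between 0.06 and 0.10, with an exact p of up to 0.0571.

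EGFR was the most abundant of the 3 receptor transcripts. Its level was 892.8, 897.4, 946.9 and 956.2 CPM in the controls and 973.1, 978.6, 962.6 and 956.0 CPM after CML. The groups met at the edge, since CML replicate 4 lay just below control replicate 4. The log2 difference was 0.07 (SE 0.027), with a limma adjusted p of 0.623. The controls spread by 3.56%, although 14973 to 18291 reads per library give a counting error of only 0.800%.

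ERBB3, the kinase-impaired receptor that binds NRG1, had lower values in all CML cultures. It was at 7.51, 7.15, 7.26 and 7.12 CPM in the controls and at 6.37, 6.42, 6.70 and 6.22 CPM after CML. No CML value reached a control value, and the log2 difference was −0.15 (SE 0.043), with a limma adjusted p of 0.422. These values rested on 100 to 126 reads. A further protein-coding model overlaps ERBB3 on the same strand, so its reads may include those of that model. The counting error was 9.02% in the controls and 9.55% after CML, while the replicates spread by only 2.44% and 3.14%, so the observed spread is smaller than that of independent counting.

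ERBB2, the receptor that pairs with the others, was at 54.4, 47.2, 52.4 and 44.1 CPM in the controls and at 47.1, 49.6, 52.9 and 50.0 CPM after CML. All 4 CML values lay within the control range, and the log2 difference was 0.01 (SE 0.071, 95% CI −0.15 to 0.18, limma adjusted p = 1). ERBB2 overlaps PGAP3 and MIEN1 on the opposite strand, and it is not given for this experiment whether counting used the strand. ERBB4, the remaining receptor of the family, was not analysed here.

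ADAM17, the main protease for TGFA, AREG and HBEGF release, was at 128.7, 129.6, 136.2 and 132.8 CPM in the controls and at 131.3, 131.2, 124.8 and 133.7 CPM after CML. The groups overlapped across most of their range. The log2 difference was −0.02 (SE 0.027, 95% CI −0.08 to 0.05, limma adjusted p = 0.968).

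ERRFI1, the feedback inhibitor of EGFR, was the most abundant of the 10 genes. It was at 1619, 1665, 1669.6 and 1766 CPM in the controls and at 1724, 1770.02, 1731 and 1816 CPM after CML. The groups overlapped through control replicate 4, which lay above CML replicates 1 and 3. The log2 difference was 0.07 (SE 0.034), with a limma adjusted p of 0.729. With quantile normalization it was 0.0023 (adjusted p = 1). TGFA, EGFR, ADAM17 and ERRFI1 also overlap annotated noncoding RNAs, and ADAM17 overlaps IAH1 on the opposite strand.

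**Figure D2:**
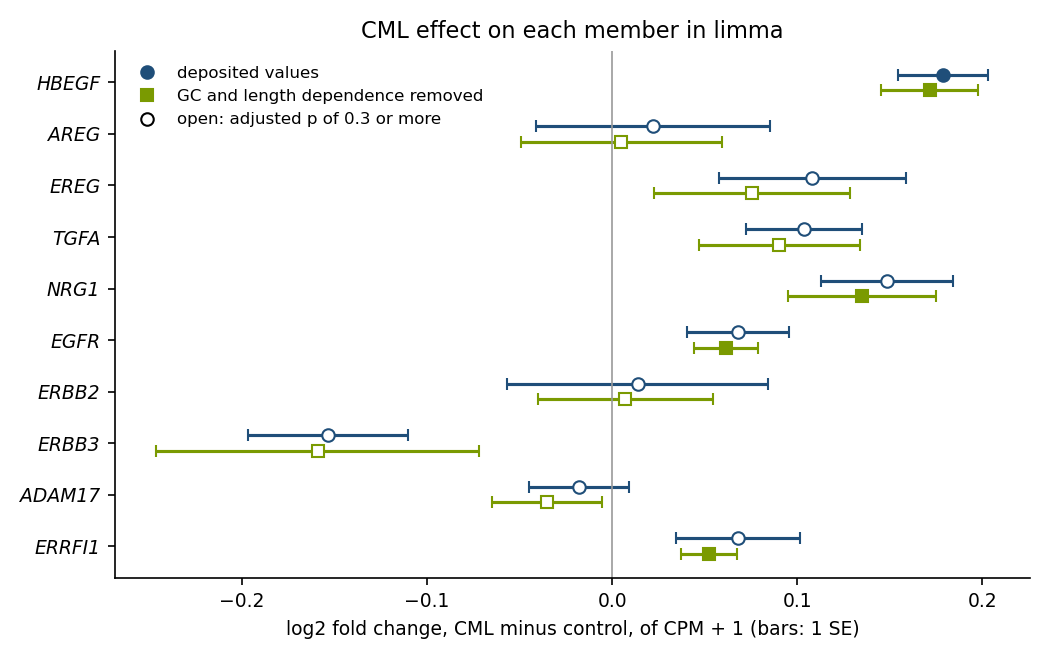
Log2 difference (CML minus control, of CPM + 1) of each gene from limma, with bars of 1 SE, on the deposited values (circles) and with effects of GC content and length taken out (squares). Filled symbols have an adjusted p under 0.3, which holds for HBEGF on the deposited values and for HBEGF, NRG1, EGFR and ERRFI1 after the removal.

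The dependence of each library's values on the GC content and length of the transcripts was also removed, as an alternative over 12122 genes. The SD of the control libraries on the log2 scale fell from 0.051 to 0.012 for EGFR. For ERRFI1 it fell from 0.052 to 0.0076, for ERBB2 from 0.14 to 0.069, and for HBEGF it was 0.044 before and after. For ERBB3 it rose from 0.031 to 0.050, for ADAM17 from 0.037 to 0.049 and for EREG from 0.054 to 0.062. The SD of the CML libraries rose for EGFR (0.015 to 0.022), ERBB2 (0.067 to 0.088), NRG1 (0.059 to 0.074) and TGFA (0.042 to 0.053). It fell for the other 6 genes, among them ERRFI1 (0.034 to 0.012), HBEGF (0.024 to 0.021) and EREG (0.090 to 0.066). The log2 differences were then 0.17 for HBEGF, 0.14 for NRG1, 0.06 for EGFR and 0.05 for ERRFI1. They were 0.09 for TGFA, 0.08 for EREG, 0.0050 for AREG, 0.0071 for ERBB2 and −0.04 for ADAM17. The limma adjusted p was then 0.00101 for HBEGF, 0.111 for NRG1, 0.0865 for EGFR and 0.101 for ERRFI1, so that 4 of the 10 genes passed 0.3, all higher. In this setting 6.82% of the genes tested passed (827 genes), and 4.22% were higher. The share of higher genes among those called was 75.3% on the deposited values, 61.8% after this removal, 63.0% with libraries centred on their median and 62.5% with quantile normalization. ERBB3 was at −0.16 after the removal, with an adjusted p of 0.501, and its groups still did not overlap, while those of TGFA did in this setting.

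Levels of different genes were compared as CPM per kilobase of the canonical GENCODE transcript. In the controls, ERRFI1 was at 542.4 ± 19.9 CPM per kilobase, EGFR at 93.2 ± 3.32 and HBEGF at 73.8 ± 2.27 (SD, n = 4 each). ADAM17 followed at 30.03 ± 0.771, AREG at 25.8 ± 2.00, ERBB2 at 10.9 ± 1.03 and TGFA at 9.83 ± 0.338. EREG at 6.03 ± 0.231, NRG1 at 5.10 ± 0.162 and ERBB3 at 1.29 ± 0.032 came last. ERBB2 and TGFA overlapped between libraries, and every other neighboring pair in this order was separated in all 4 controls. The inhibitor transcript was therefore more abundant per length than that of its target receptor, and HBEGF was the most abundant ligand transcript. A single transcript model was used for each gene, so a gene expressed mainly from a shorter form, as NRG1 can be, would have a higher level than given.

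**Figure D3:**
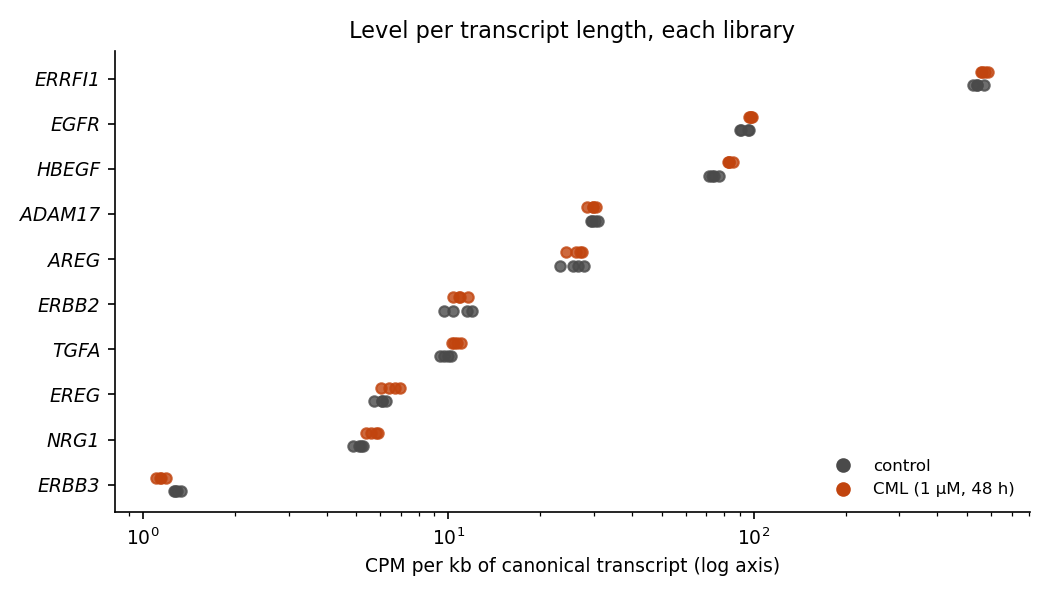
Level of each gene in CPM per kilobase of transcript (log axis) in the control and CML libraries, ordered by the control mean, with 1 point per library. ERRFI1, EGFR and HBEGF lead the order, from 542.4 down to 73.8 in the controls, and ERBB3 is lowest at 1.29.

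Of the summed level of the 5 ligands per length, HBEGF made up 61.2% ± 1.15 in the controls and 63.1% ± 0.743 after CML. AREG made up 21.4% ± 1.20 and 19.8% ± 0.844, TGFA 8.15% and 7.98%, EREG 4.999% and 4.92%, and NRG1 4.23% and 4.27%. The HBEGF share overlapped between the groups, with 62.3% in control replicate 1 and 62.3% in CML replicate 4. Of the 3 receptors, EGFR made up 88.4% ± 1.10 in the controls and 89.0% ± 0.496 after CML. ERBB2 made up 10.3% and 9.97%. The ERBB3 share was 1.23% ± 0.052 and 1.04% ± 0.029, and here every CML library was below every control library. These shares describe transcripts, not protein.

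The other genes of the pathway were taken from lists of known roles, 107 genes in all, of which 102 were in the table and 2 had an adjusted p under 0.3, against 0.895% of all genes. Of the 6 further ligands listed, EGF, BTC and NRG2 were present, at 0.871, 1.84 and 2.19 CPM in the controls. After CML they were at 1.15, 1.69 and 2.16 CPM, with limma adjusted p of 0.799, 0.977 and 1. These ligands were far less abundant than the 5 described above, and none passed the test. EPGN, NRG3 and NRG4 were not analysed here.

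None of the 14 shedding genes passed the threshold. The list holds, among others, genes for proteases, their iRhom partners and inhibitors, and CD44. The smallest p belonged to TIMP3, an inhibitor of ADAM17. It was at 250.4, 253.0, 261.3 and 266.9 CPM in the controls and at 271.1, 272.4, 268.4 and 281.3 CPM after CML. The groups did not overlap, and the log2 difference was 0.08 (SE 0.025, limma adjusted p = 0.465). RHBDF1 (iRhom1), which can help to bring ADAM17 to the cell surface, was at 38.5 ± 2.48 and 35.3 ± 2.43 CPM (adjusted p = 0.748). CD44, which can present HBEGF at the cell surface, was at 831.6 ± 35.4 and 867.8 ± 16.9 CPM (adjusted p = 0.753). The median log2 difference of the list was 0.05.

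None of the 26 adaptor and cascade genes and none of the 22 receptor brakes in the table passed either. In the cascade list, STAT3, a transcription factor activated downstream of EGFR, was at 141.7 ± 5.97 and 152.04 ± 3.82 CPM (limma adjusted p = 0.507). The kinase gene MAP2K1 (MEK1) was at 70.7 ± 3.30 and 76.4 ± 3.29 CPM (0.613). Both overlapped between the groups. Among the brakes, RNF41 (Nrdp1), a ubiquitin ligase for ERBB3, was at 74.7 ± 3.30 and 80.3 ± 2.66 CPM (0.554). The phosphatase genes PTPN1 and PTPRJ were at 94.3 and 99.8 CPM (0.574) and at 135.3 and 131.3 CPM (0.812), again with overlap. The medians of both lists were 0.02.

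The 37 response genes are transcripts known to be induced by EGFR and MAPK signaling. In this list 2 of 37 passed the threshold, against 0.895% of all genes, both higher after CML, and both encode phosphatases that inactivate MAP kinases. Both calls ended with median centring (limma adjusted p of 0.476 for DUSP5 and 0.402 for DUSP1) and with quantile normalization (0.482 and 0.350). DUSP5, which acts on ERK in the nucleus, rose. It was at 294.3, 291.0, 292.9 and 291.6 CPM in the controls and at 319.3, 306.8, 312.1 and 320.1 CPM after CML. No values overlapped, and the log2 difference was 0.10 (SE 0.016), with a limma adjusted p of 0.145. The SD was 1.43 CPM in the controls and 6.31 CPM after CML. The control spread is smaller than that of independent counting at this level, so the SE may be too small. Without CML replicate 3, control replicate 2 or control replicate 3 the adjusted p was 0.337, 0.305 and 0.309.

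DUSP1, an early-response phosphatase that acts on JNK, p38 and ERK, rose from 22.2, 24.1, 22.5 and 23.3 CPM to 25.2, 29.0, 26.1 and 28.2 CPM. The groups did not overlap, and the log2 difference was 0.23 (SE 0.050), with a limma adjusted p of 0.297. That call stood at the threshold. It remained in 1 of the 8 fits that left out a library (without control replicate 4, 0.268), and the other 7 gave 0.303 to 0.523, with log2 differences from 0.20 to 0.26. PLAU, which encodes the urokinase protease, was at 187.5 ± 7.80 and 204.6 ± 4.20 CPM without overlap (adjusted p = 0.375).

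Of the 37 response genes, 10 had an unadjusted p under 0.05, 9 of them higher after CML, against 7.66% of all genes in either direction. With the GC and length dependence removed, 10 of 35 had an adjusted p under 0.3, 9 of them higher, against 6.82% of the genes tested in that setting. In the same setting 3 of 12 shedding genes, 4 of 26 cascade genes and 2 of 22 brakes passed, or 19 of 98 pathway genes in all. The lists and members were chosen with earlier results of these data known, so the counts describe them and are no test of the pathway. Many of these transcripts are also known to be induced by signals other than EGFR.

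**Figure D4:**
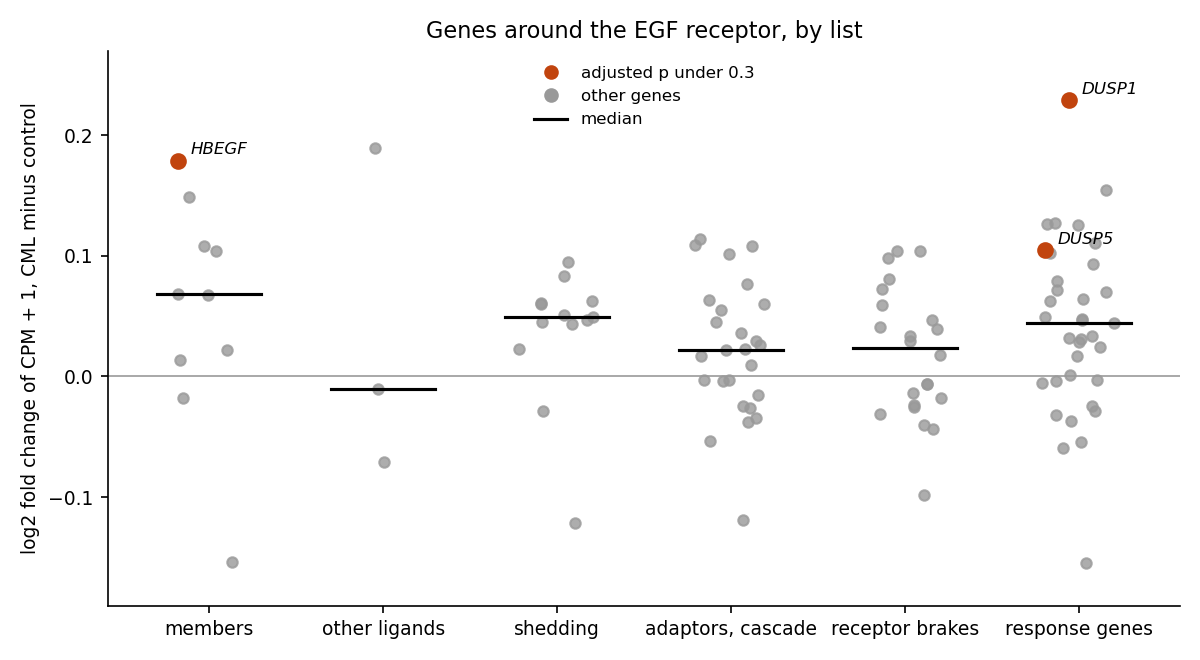
Log2 difference (CML minus control, of CPM + 1) of each gene averaging 0.5 CPM or more in the 10 genes examined ("members") and in 5 lists of related genes, with 1 point per gene and a line at the median. HBEGF, DUSP5 and DUSP1 are the points with an adjusted p under 0.3, and the medians lie between −0.01 and 0.07.

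The genes most like HBEGF across the 8 libraries, among 13046 genes averaging 1 CPM or more, were JAG1 (Pearson r = 0.979), COL8A1 (0.971), MKI67 (0.967), HIST1H2AC (0.966) and DCUN1D4 (0.955). The correlations share the 2 groups of libraries and are a description over 8 points. Within the groups, with each group centred on its mean, r was 0.808, 0.921, 0.652, 0.780 and 0.813. JAG1, a Notch ligand, was at 291.6 ± 4.30 CPM in the controls and 314.8 ± 5.40 CPM after CML, a log2 difference of 0.11 (limma adjusted p = 0.145). Its adjusted p was 0.373 without CML replicate 2, 0.337 without CML replicate 3, 0.310 without control replicate 2 and 0.324 with median centring. MKI67, the proliferation marker Ki-67, was at 123.8 ± 5.60 and 152.3 ± 3.21 CPM, a log2 difference of 0.30 (adjusted p = 0.0856), and passed the threshold with each library left out. COL8A1, a collagen chain, differed by 0.15 (adjusted p = 0.295) and the histone gene HIST1H2AC by 0.16 (0.262). These calls remained in 2 of the 8 fits that left out a library, and the adjusted p rose to 0.554 and 0.518. HIST1H2AC belongs to a multigene family whose copies can share reads. DCUN1D4, a neddylation factor, differed by 0.10 (0.323).

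Of the other genes of the system, TGFA (r = 0.921) and NRG1 (0.915) were most like HBEGF, at positions 31 and 35 of the 13046 genes. EGFR (0.791), EREG (0.715) and ERRFI1 (0.647) followed. AREG (0.215), ERBB2 (0.064) and ADAM17 (−0.070) had low values, and ERBB3 was at −0.913. Within the groups, r was 0.848 for TGFA, 0.639 for NRG1, 0.485 for EGFR, 0.422 for EREG, 0.272 for AREG and −0.019 for ERBB2. It was −0.275 for ERBB3 and 0.082 for ERRFI1, so both of these values rest largely on the difference between the groups. For ADAM17 it was 0.540.

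The labelled cell line was checked against its markers. VIM was between 4014 and 4243 CPM, MSN between 1328 and 1434, AXL between 1122 and 1263, CD44 between 802.8 and 885.3 and CAV1 between 136.5 and 162.5 CPM, as for a mesenchymal-like line. Of 4 luminal markers in the table, FOXA1 and PGR were at most 0.062 and 0.114 CPM and CDH1 at most 0.954 CPM, while GATA3 was between 3.47 and 5.61 CPM. ESR1 was not analysed here. The 7 markers of other cell types in the table summed to between 13.6 and 18.8 CPM per library, led by COL1A1 at 9.40 to 13.3 CPM. PECAM1, an endothelial marker, was at 2.36 to 3.84 CPM in every library, and PTPRC, the leukocyte marker, was at most 0.650 CPM. COL3A1 was at 3.35 CPM in CML replicate 3. CAV1 was higher in every CML library (log2 difference 0.13, limma adjusted p = 0.458). None of these markers passed the test on the deposited values. With the GC and length dependence removed, 3 of the 5 markers of the line passed, all higher (CAV1 0.101, CD44 0.231 and MSN 0.290), against 6.82% of the genes tested in that setting. Their part in the results was not tested.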

How the data were processed

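RNA was isolated with the RNeasy Plus Mini Kit and sequenced from 4 control and 4 NCML libraries of MDA-MB-231 cells. The authors deposited CPM values, and the submitters' processing notes name edgeR and hg38. For the study's tumors, the methods describe stranded libraries aligned to hg19 with Tophat and Ensembl annotation. For this experiment the aligner, annotation and strand setting are not given in the sources used here, and whether its build was hg19 or hg38 is unsettled. Values fell on equal steps per library, 1 read being worth 0.0535 to 0.0622 CPM, which gave the estimated reads. Since only 84.5% to 85.6% of values under 1000 reads were whole (within 0.02 reads), no count test was run. Counting errors assume independent molecules.

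Rows of 1 symbol were averaged (32 symbols). Groups were compared on log2(CPM + 1) with limma 3.58.1 (R 4.3.3, variance trend), with Benjamini-Hochberg adjustment over 17649 genes (tested on simulated data, where the share of false calls lay above the nominal FDR of 0.3, so calls at that threshold may hold more false ones than it states). Transcript lengths and GC content came from GENCODE v44 lifted to GRCh37. For the GC and length alternative, each library's deviations were regressed on splines of both. Promoters came from RefSeq. Figures were drawn with matplotlib 3.10.9. Further settings tried were no genes under a mean of 1 CPM, a pseudocount of 0.1, median centring, quantile normalization, no variance trend, a replicate block and each library left out.

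The 10 genes and the lists were chosen with earlier results of these data known. Named genes are these 10, in each list those with an adjusted p under 0.3 and the 3 with the smallest p, the markers, and the 5 genes most like HBEGF. Of the genes this rule names, 1 is not reported here.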

Additional observations from a re-analysis of the deposited data

Results flagged for a closer look

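Of 54 groups of 4 values over 27 items, 1 had a library far from the other 3, where chance would give 2.7. Control replicate 4 had 17729518 estimated reads, against 16559914 to 16690410 in the other controls, a gap of 0.888 of the range, which is above Dixon's 95% critical value. Without that library, 690 genes instead of 158 had an adjusted p under 0.3.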

How the results depend on the processing

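HBEGF was higher after CML in all 16 alternatives, by 0.15 to 0.20, and had a limma adjusted p under 0.3 in 15 of them (0.00101 to 0.286). The exception was the fit without CML replicate 2 (0.17, adjusted p = 0.330), and leaving out single libraries gave 0.16 to 0.20. The 10 genes had 4 calls with the GC and length dependence removed and 4 when a replicate block was added to that, 2 without the variance trend (ERBB3 added, adjusted p = 0.152) and 2 with a replicate block (NRG1 added, 0.287). Leaving out single libraries gave 0 calls (without CML replicate 2) to 2 (without control replicate 4). Over all genes, 158 calls became 73 with median centring, 827 with the GC and length dependence removed and 949 with a replicate block added to that. Leaving out single libraries gave between 20 (without CML replicate 2) and 690 (without control replicate 4). The cause of these shifts was not tested.

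The excess of HBEGF over the other ligands was 0.0769 with quantile normalization (exact permutation p = 0.0571) and 0.0833 with a replicate block over 4 pairs (exact p = 0.125, the smallest 4 pairs allow). Leaving out single libraries gave 0.0638 to 0.0962 (exact p up to 0.0571). For the 9 other genes, 128 of 144 values kept direction and side of the threshold, 9 gained a call and 7 changed sign. ERBB2 turned to −0.0059 with median centring and −0.0044 with quantile normalization. Leaving out single libraries gave −0.0394 to 0.0593 for ERBB2, negative without CML replicate 3 (−0.0142), control replicate 2 (−0.0071) or control replicate 4. It gave −0.0305 to 0.0024 for ADAM17 (positive without CML replicate 3) and −0.0269 to 0.0599 for AREG (negative without control replicate 1). The labels give same-numbered control and CML libraries only a shared number. Their deviations correlated between −0.0645 and 0.334 (mean 0.11), and 2 of 4 matched their own number best. These values do not settle whether the libraries were paired. The block changed no other call among the 10 genes, but with it the limma adjusted p of HBEGF rose to 0.263. In that setting COL8A1 and HIST1H2AC had adjusted p of 0.376 and 0.396. DUSP5 also lost its call over genes of mean 1 CPM or more (0.319) and DUSP1 with a pseudocount of 0.1 (0.301). COL8A1 lost its call with median centring (0.398), quantile normalization (0.371), no variance trend (0.315) and a pseudocount of 0.1 (0.307), and HIST1H2AC with median centring (0.545) and over genes of mean 1 CPM or more (0.568). Of the 10 genes, ERBB3 had the fewest reads, 100 to 126 per library.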
